A study of Mus musculus with 60 samples.

Results

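Clozapine, loratadine, metoclopramide and ondansetron are drugs of different clinical classes that carry basic amine nitrogens or a related nitrogen ring. They were taken as a set by compound name, and the set was chosen with earlier results of these data known. From the series, 12 of the 60 arrays, 3 for each of the 4 drugs, were set against the 45 arrays of the other 15 compounds. All arrays measured RNA of R1, an established mouse embryonic stem cell line, which was grown on feeder cells, separated from them and exposed in the undifferentiated state for 6 h in 0.1% DMSO. The question was which genes the 4 drugs share against other compounds, so each drug counted as 1 value per gene, the mean of its 3 arrays.

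Clozapine was given at 0.028 mM, loratadine at 0.043 mM, metoclopramide at 0.17 mM and ondansetron at 0.054 mM, in each case an IC10, a concentration with a small loss of viability. The labels class all 4 as non-teratogens. Of the other 15 compounds, 10 are labelled teratogens and 5 non-teratogens. Penicillamine, Dimethadione, Fluconazole, Topiramate and VPA (teratogens) and Chlorthalidone, Hydrochlorothiazide, Paracetamol and Sulfasalazine (non-teratogens) were given at 1 mM. The teratogens Retinoic acid (0.024 mM), Dexamethazone (0.1 mM) and Methotrexate (0.028 µM) and the non-teratogen Glybenclamide (0.37 mM) were given at an IC10, as was the teratogen Azacytidine, whose dose is 0.23 µM in the titles and 23 µM in the sample characteristics. The teratogen Thalidomide was given at 0.35 mM with no basis stated. The solvent control was DMSO alone at 0.1%, with 3 arrays. The labels call the arrays triplicates and do not say that they came from separate cultures, so a p-value from arrays measures only the spread between these arrays.

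Clozapine is an antipsychotic, a tricyclic dibenzodiazepine with an N-methylpiperazine. Loratadine is an antihistamine, a tricycle with a pyridine ring and a piperidine whose nitrogen is held in a carbamate and is not basic. Metoclopramide is a benzamide with a diethylaminoethyl side chain, and ondansetron is a carbazolone with a methylimidazole. Weak bases that cross membranes can be protonated and retained in acidic compartments such as lysosomes, and lipophilic ones of this kind are known for disturbing lipid and cholesterol traffic there. Cells respond to low sterol in the endoplasmic reticulum through SREBP2, which raises genes of cholesterol synthesis and Insig1, and to lysosomal stress through TFEB and TFE3, which raise genes of lysosomal enzymes and the proton pump. The doses of the 4 differ, so their values stand side by side and 0 pairs among them were tested.

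The labelled cell type was checked first. Pou5f1, Nanog and Sox2, transcription factors of pluripotent cells, lay at the percentiles 98.8, 98.2 and 97.6 of probe set brightness, with means over the 4 drugs of 12.83, 12.65 and 12.36 log2 units. The mean level of 26 pluripotency genes was 11.46 to 11.56 on the 12 arrays of the 4 drugs, 11.11 to 11.60 on the 45 others and 11.44 to 11.50 with DMSO. The mean level of 15 fibroblast genes, which would mark feeder cells, was 8.88 to 8.96, 8.85 to 9.15 and 8.91 to 8.99 in the same order. Col1a1, a fibroblast collagen, lay at the percentile 80.3 and averaged 10.04 with the 4 drugs and 10.09 with DMSO. Of the 15 fibroblast genes 11 were above the median brightness, as were 25 of the 26 pluripotency genes. The interquartile range of an array's signals was 2.85 to 3.12 with the 4 drugs, 2.65 to 3.15 with the others and 2.82 to 3.03 with DMSO.

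With the compound as the unit, 7 probe sets differed between the 4 drugs and the 15 others, and each was higher with the 4 drugs. The genes were Insig1, Dpp7, Bhlhe41, Cxcl16, Crebrf, Lncpint and Tbc1d24, with differences of 0.28 to 0.74 on the log2 scale. A probe set was called when limma's p over the 19 compound means, adjusted by Benjamini and Hochberg over 21789 probe sets, was under 0.05. Earlier results of these data were known when the set was chosen, so these p-values do not come from an unselected comparison. The 7 higher calls are 0.0321% of the probe sets tested, and 0 were called lower (0%). At an unadjusted p under 0.05, limma gave 756 higher and 885 lower. All 7 were also called higher with the mean of the 4 drugs against DMSO (4.07% of all probe sets), a comparison that uses the same 12 arrays and gives no independent support. No probe set was called against the 5 other IC10 compounds alone (1199 at an unadjusted p under 0.05) or against the 5 other non-teratogens alone (1245).

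**Figure D1:**
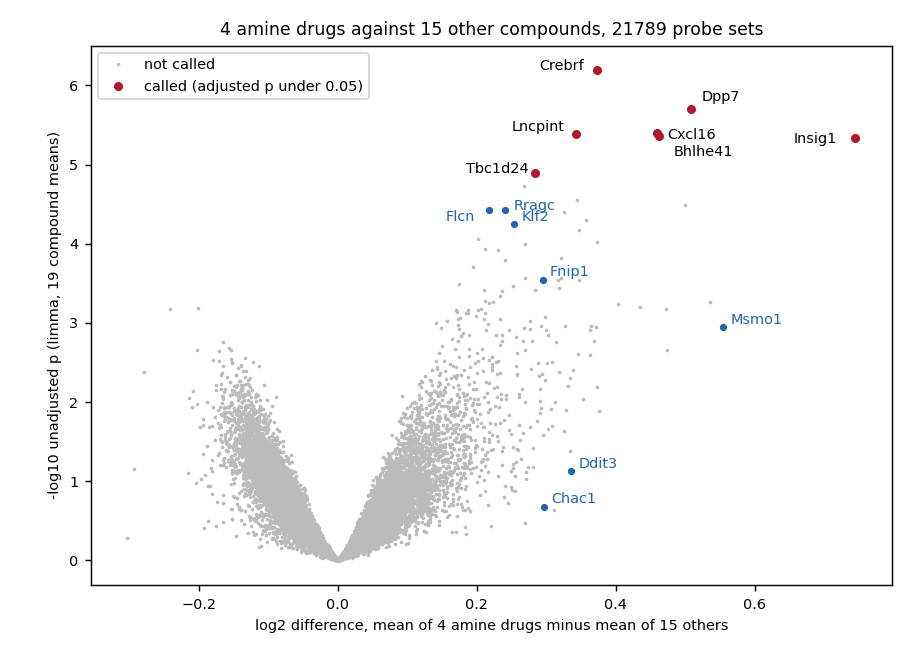
Each point is a probe set, with the log2 difference between the mean of the 4 drugs and the mean of the 15 others on the x axis and minus log10 of limma's unadjusted p on the y axis. The 7 called probe sets, in red, are all on the right, between 0.28 and 0.74, and blue points mark other genes described in the text.

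Crebrf, which encodes a regulator of the CREB3 stress factor, was the gene with the lowest p. Clozapine arrays read 9.16, 8.93 and 9.04, Loratadine 9.13, 9.14 and 9.07, Metoclopramide 9.15, 8.95 and 9.10, and Ondansetron 9.00, 9.10 and 9.09. DMSO arrays read 8.66, 8.64 and 8.82. The 4 drugs were alike in level and all 12 arrays lay above the DMSO arrays. On the 45 other arrays the lowest, median and highest values were 8.37, 8.68 and 8.95, and 10 of the 12 arrays lay above all 45. The difference was 0.37 ± 0.055 (SE, limma, 19 compound means, adjusted p = 0.0140), and Chlorthalidone had the highest mean among the others, 8.92.

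Tbc1d24, a TBC-domain protein of vesicle traffic, had 9.03 with Clozapine, 9.06 with Loratadine, 9.04 with Metoclopramide and 9.02 with Ondansetron. Its 12 arrays ran from 8.89 over a median of 9.03 to 9.18, and the DMSO arrays read 8.67, 8.66 and 8.75. The 4 means again hardly differed, and the nearest of the others was Glybenclamide at 8.95. The difference was 0.28 ± 0.051 (limma, adjusted p = 0.0396). Only 1 of the 12 arrays was above all 45 others, so single arrays overlapped although compound means did not.

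Bhlhe41, a circadian transcriptional repressor, and Lncpint, a long non-coding RNA, were higher in all 4 means but not evenly. Bhlhe41 read 6.99, 6.96 and 7.03 with Clozapine, 7.44, 7.54 and 7.41 with Loratadine, 6.97, 6.58 and 6.82 with Metoclopramide, 6.70, 6.90 and 6.73 with Ondansetron, and 6.39, 6.57 and 6.68 with DMSO. Loratadine was highest, and 1 Metoclopramide array lay within the DMSO range. The difference was 0.46 ± 0.078 (limma, adjusted p = 0.0168). Lncpint averaged 7.36, 7.47, 7.22 and 7.21 with Clozapine, Loratadine, Metoclopramide and Ondansetron, against 6.96 with DMSO and at most 7.18 with another compound, Azacytidine. Its difference was 0.34 ± 0.057 (limma, adjusted p = 0.0168).

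Insig1, the endoplasmic reticulum protein that holds back SREBP and is itself a gene raised by SREBP, had the largest difference of the 7. Clozapine arrays read 11.19, 11.15 and 11.08, Loratadine 11.02, 11.11 and 11.11, Metoclopramide 10.44, 10.35 and 10.36, and Ondansetron 10.27, 10.48 and 10.23. DMSO arrays read 9.95, 9.76 and 9.98. All 12 arrays lay above DMSO, with Clozapine and Loratadine as the higher pair. The difference from the 15 others was 0.74 ± 0.126 (limma, adjusted p = 0.0168), a ratio of 1.68, and Dexamethazone, at 10.45, was the only one of the 15 above the lowest of the 4.

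Dpp7, a lysosomal dipeptidyl peptidase, and Cxcl16, a membrane-bound chemokine that also binds oxidised lipoprotein, showed the same arrangement. Dpp7 averaged 10.43, 10.30, 10.05 and 9.96 with Clozapine, Loratadine, Metoclopramide and Ondansetron, and 9.64 with DMSO. Its difference was 0.51 ± 0.081 (limma, adjusted p = 0.0168), with Chlorthalidone at 10.05 above the lowest of the 4. Cxcl16 averaged 8.31, 8.64, 8.12 and 8.14, and 7.69 with DMSO. Its difference was 0.46 ± 0.077 (limma, adjusted p = 0.0168), with Sulfasalazine at 8.123 against 8.122 for the lowest of the 4. Insig1, Dpp7 and Cxcl16 overlapped the others in this way. Insig1 was named by the rule for gene lists, and Dpp7 and Cxcl16 were named after their values were seen.

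**Figure D2:**
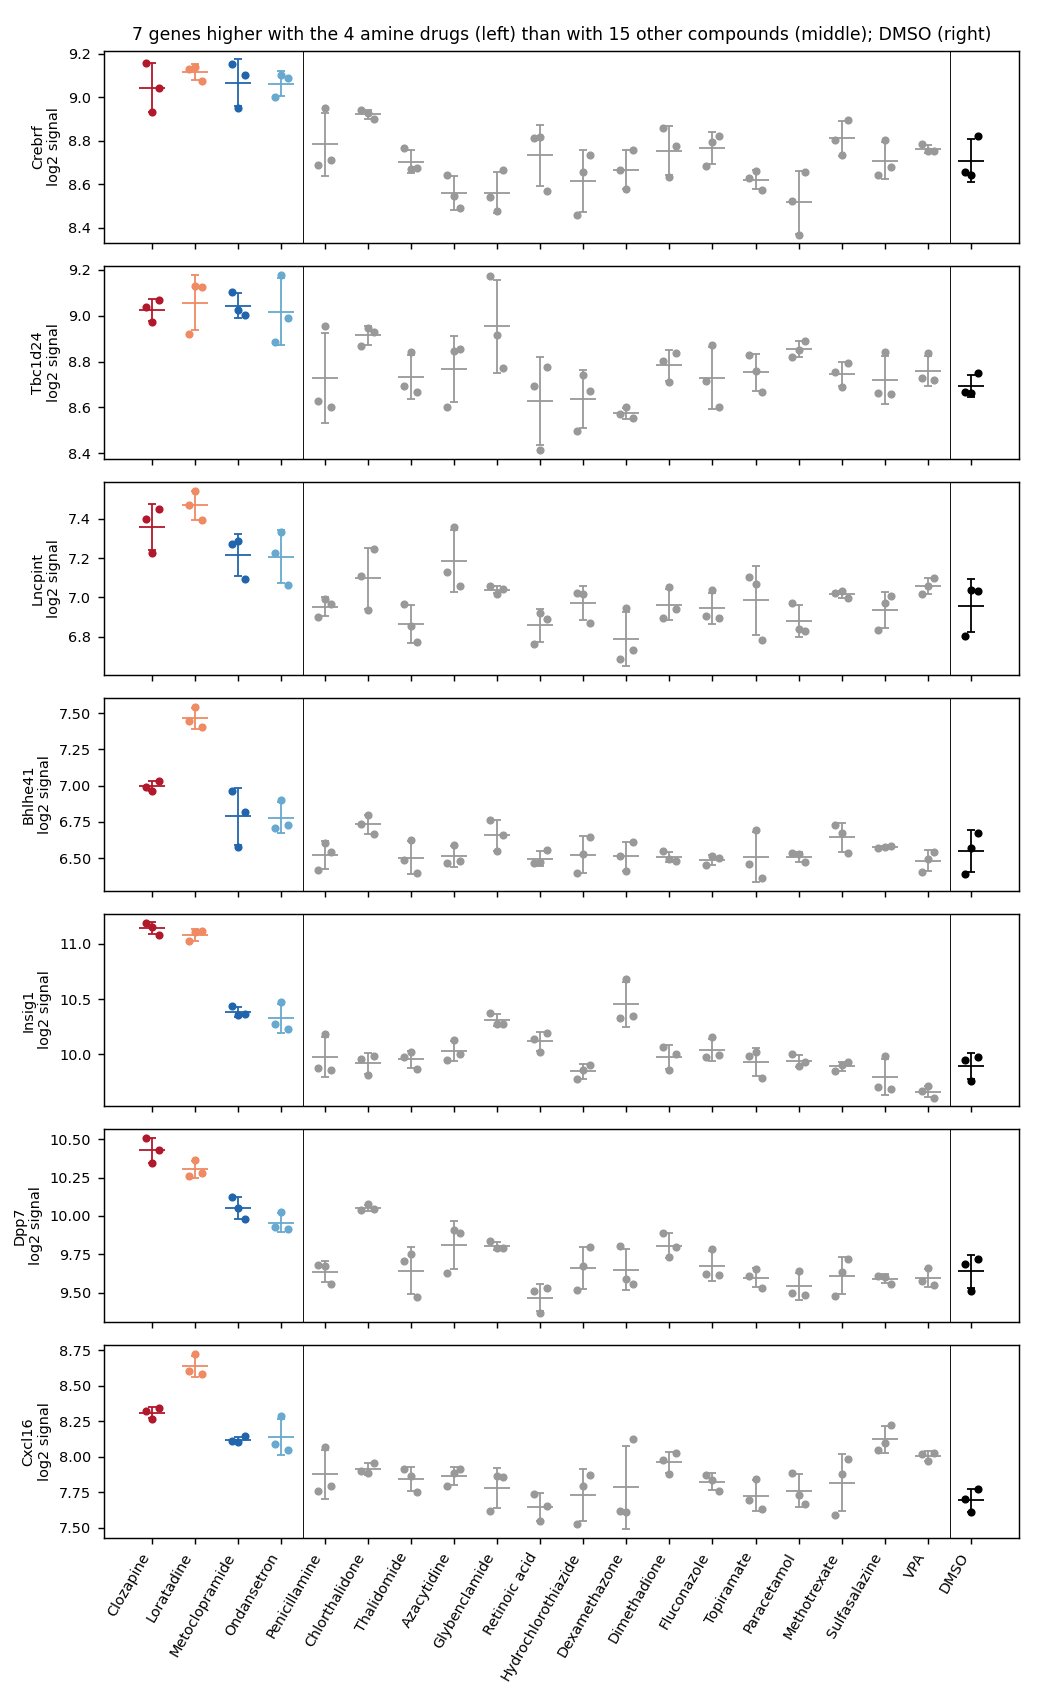
Log2 signal of the 7 called genes in every group, with 1 point per array and the mean ± SD of 3 arrays. Every mean of the 4 drugs (coloured, left) lies above the DMSO mean (black, right), and Insig1 separates into Clozapine and Loratadine near 11.1 and Metoclopramide and Ondansetron near 10.3 to 10.4.

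Without Clozapine 0 probe sets were called and without Loratadine 1, which was none of the 7. Without Chlorthalidone 28 were called, the 7 among them. Loratadine, Ondansetron and Metoclopramide ranked 2, 4 and 5 of the 20 groups in mean interquartile range and Clozapine 11, and with the range as a covariate 0 were called by limma (899 at an unadjusted p under 0.05).

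A second view asked, with no test, in which probe sets all 4 means lay beyond all 15 others. There were 23 with all 4 higher (0.106% of the probe sets) and 6 with all 4 lower (0.0275%). The DMSO mean was below all 4 drugs in 23 of the 23 and above them in 5 of the 6. Against DMSO, 18 of the 23 were called higher with the mean of the 4 (4.07% of all probe sets) and 0 of the 6 were called lower (1.2%). The same 12 arrays chose these probe sets and enter the comparison with DMSO, so these counts are a description and no independent support. After quantile normalisation the split was 15 higher and 14 lower.

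Of the 23, Rragc is in the list of autophagy and TFEB signalling, where 1 of 35 genes did not overlap. Klf2 and Esrrb are in the pluripotency list, with 2 of 26. Atp6ap1 is in the lysosomal proton pump list, with 1 of 15. Dusp4 is in the list of immediate early and ERK feedback genes, with 1 of 24. The share of all genes was 0.11%. Rragc, a Rag GTPase that brings mTORC1 to the lysosome, averaged 10.26, 10.22, 10.18 and 10.14 with Clozapine, Loratadine, Metoclopramide and Ondansetron, and 9.88 with DMSO. Its difference was 0.24 ± 0.047 (limma, adjusted p = 0.0671), just outside the threshold. Klf2, a transcription factor of naive pluripotency, averaged 11.14, 11.22, 11.10 and 11.07, and 10.84 with DMSO. Its difference was 0.25 ± 0.052 (limma, adjusted p = 0.0830). Esrrb, a nuclear receptor of the same network, averaged 12.04, 12.06, 11.98 and 11.96, and 11.73 with DMSO. Its difference was 0.26 ± 0.071 (limma, adjusted p = 0.385), and VPA had the lowest mean of the 15 for Klf2 and Esrrb.

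Lrrc31 had the largest difference of the 23, 0.50 ± 0.097 (limma, adjusted p = 0.0671), led by Loratadine, 0.99 above the mean of the 15, against 0.45, 0.28 and 0.27 for Clozapine, Metoclopramide and Ondansetron. The other genes named by the rule were Ripply1, a corepressor, Slc23a1, a vitamin C transporter, Tra2a, a splicing factor, Stx3, a SNARE of vesicle fusion, Klf6, a transcription factor, and Dusp4, a phosphatase that switches off MAP kinases. Their differences ran from 0.22 for Tra2a and Stx3 to 0.29 for Ripply1, and none was called. Atp6ap1, an accessory subunit of the proton pump, and Gramd1a, a carrier of cholesterol between membranes, were among the 9 further ones, with differences of 0.15 and 0.14, and were picked out after their values were seen.

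The 6 lower probe sets were all under the median brightness, compared with 3 of the 23 higher ones, and none was called. Per2, a circadian repressor, averaged 7.67, 7.52, 7.68 and 7.67 with Clozapine, Loratadine, Metoclopramide and Ondansetron, 7.75 with DMSO and 7.77 over the 15 others. Its difference of -0.14 ± 0.042 had a limma adjusted p of 0.556. Cntnap3, Olfr780, Spin2c, Abcg3 and Sytl5 differed by -0.14 to -0.09.

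**Figure D3:**
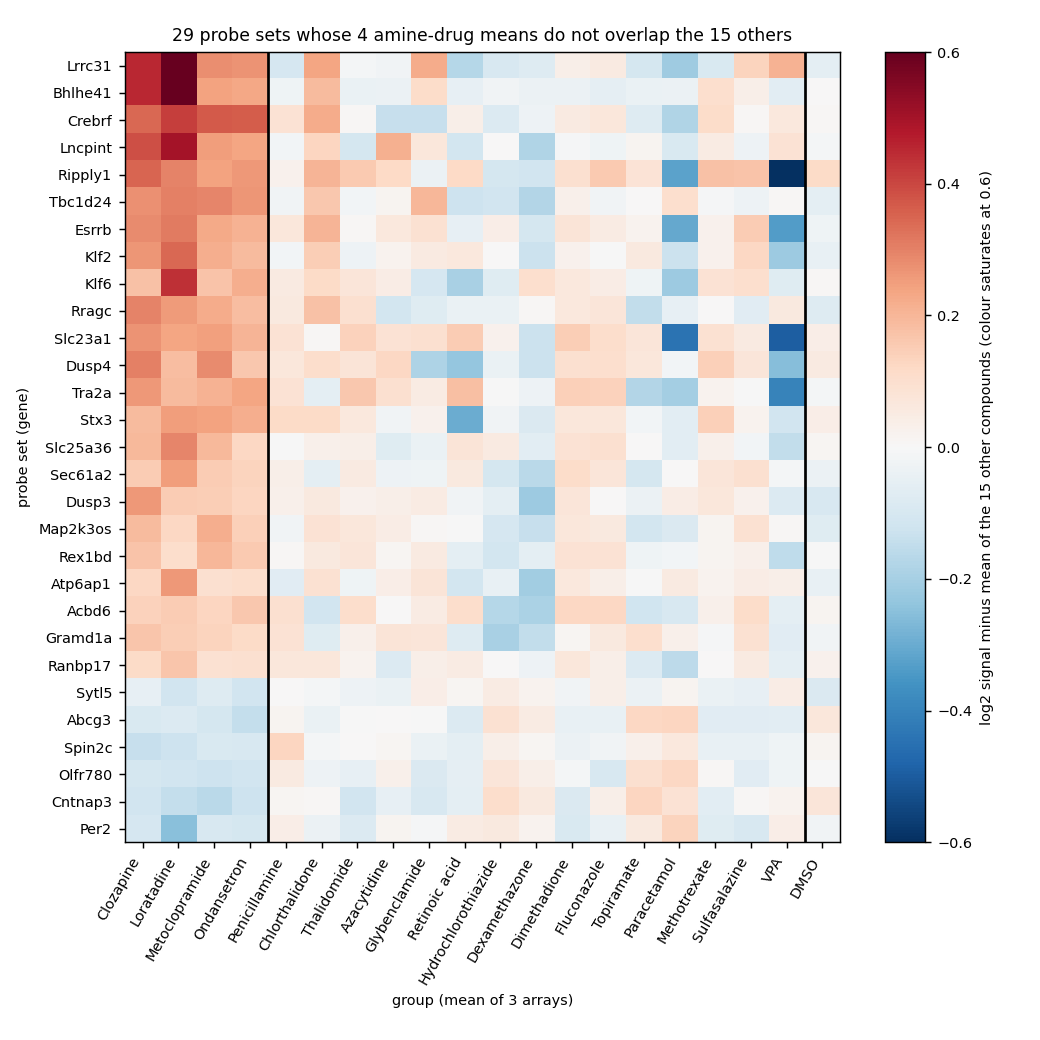
Difference of each group mean from the mean of the 15 other compounds, in log2 units, for the 29 probe sets whose 4 means do not overlap the others. The 4 left columns are red in the upper 23 rows and blue in the lower 6, and the DMSO column at the right is pale in most rows.

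Gene lists, also chosen with earlier results of these data known, were described by the share of members in which all 4 drugs lay above the mean of the 15. Over all 19938 genes, with the brightest probe set each, the 4 were all above in 13.2% and all below in 21.3%, and the median difference was -0.017. Against DMSO, the mean of the 4 was called higher in 4.25% of genes and lower in 1.2%. Without Loratadine 210 genes were called higher (1.053%) and 12 lower. Over all 21789 probe sets, 886 were called higher (4.07%) and 262 lower (1.2%) than DMSO. Without Loratadine these were 220 and 13, without DMSO replicate 1 they were 478 and 108, and without DMSO replicate 2 they were 268 and 47. The share called higher was 77.2%, 66.3% after quantile normalisation and 55.3% with the interquartile range as a covariate. In the same fit the mean of the 15 others was called higher than DMSO in 40 probe sets and lower in 20.

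Cholesterol synthesis genes had high medians with Clozapine and Loratadine, above those of all 15 others, while the medians of Metoclopramide and Ondansetron lay within the range of the 15. All 17 measured genes were called higher than DMSO with the mean of the 4 (median 0.34), and 11 of 17 without Loratadine. The shares of all genes were 4.25% and 1.053%. Against the 15 others the median difference was 0.26, with 0 of 17 called. All 4 drugs were above the mean of the 15 in 10 of 17 (13.2% of all genes). After quantile normalisation they were all above in 8 of 17, beside 1913 of all 19938 genes. The list medians were 0.41 for Clozapine, 0.53 for Loratadine, 0.013 for Metoclopramide and 0.087 for Ondansetron, and those of the 15 ran from -0.15 (Hydrochlorothiazide) to 0.33 (Dexamethazone).

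Msmo1, a demethylating sterol oxidase, lay 0.82, 1.07, 0.083 and 0.24 above the mean of the 15 with Clozapine, Loratadine, Metoclopramide and Ondansetron. Its overall difference was 0.55 ± 0.149 (limma, adjusted p = 0.349), and the mean of the 4 was 0.67 ± 0.057 above DMSO (limma, 60 arrays, adjusted p = 1.4e-11). Cyp51, the lanosterol demethylase, lay 0.83, 0.71, 0.13 and 0.22 above, and Dhcr7, the last reductase of the pathway, 0.44, 0.88, 0.042 and 0.088. Idi1, the isomerase of the isoprene unit, lay 0.41, 0.59, 0.076 and 0.13 above. In each of these genes Clozapine and Loratadine had the large values and Metoclopramide the smallest.

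Among 16 genes of sterol uptake, transport and control, Insig1 was the only one called against the 15 others (0.0351% of genes). Compared with DMSO, 4 were called higher (4.25% of all genes) and 2 lower (1.2%), and 2 and 0 without Loratadine. Stard4, a sterol carrier, Srebf2, which encodes SREBP2, and Npc2, which moves cholesterol out of lysosomes, differed by 0.22, 0.21 and 0.16 and lay above the mean of the 15 with all 4 drugs. The median of the list was 0.0094 and was -0.017 after quantile normalisation. All 4 drugs were above the mean of the 15 in 4 of 16 and below it in 1 (13.2% and 21.3% of all genes). In fatty acid synthesis 5 of 14 genes were called higher than DMSO, and 4 without Loratadine (4.25% and 1.053% of all genes). All 4 drugs were above the mean of the 15 in 5 of 14 and below it in 1. Scd1 and Scd2, the desaturases, lay 0.73 and 0.77 above the mean of the 15 with Clozapine and 0.65 and 0.47 with Loratadine, against 0.012 and 0.077 with Metoclopramide and 0.099 and 0.13 with Ondansetron.

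Lysosomal genes had positive list medians with each of the 4 drugs. Of 29 hydrolases and membrane proteins, 18 were above the mean of the 15 with all 4 drugs (13.2% of all genes) and 0 below with all 4. Compared with DMSO, 17 were called higher, and 8 without Loratadine (4.25% and 1.053% of all genes). The list medians were 0.12, 0.24, 0.058 and 0.091 for Clozapine, Loratadine, Metoclopramide and Ondansetron, and among the others VPA reached 0.16, Chlorthalidone 0.14 and Glybenclamide 0.12, each above all of the 4 but Loratadine. Of 15 proton pump genes, 12 were above with all 4 and 1 below with all 4 (13.2% and 21.3% of all genes). Compared with DMSO, 8 were called higher, and 3 without Loratadine (4.25% and 1.053% of all genes). The proton pump medians were 0.11, 0.20, 0.082 and 0.091 in the same order of drugs. VPA reached 0.18, above all of the 4 but Loratadine. After quantile normalisation the counts above with all 4 were 14 of 29 and 11 of 15, beside 1913 of all 19938 genes.

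Hexa, a subunit of the enzyme that degrades gangliosides, lay 0.61, 0.71, 0.20 and 0.22 above the mean of the 15 with Clozapine, Loratadine, Metoclopramide and Ondansetron. Its difference was 0.43 ± 0.110 (limma, adjusted p = 0.308), and 6 of the 45 other arrays exceeded the lowest of the 12. Lamp2, a lysosomal membrane protein, lay 0.20, 0.55, 0.17 and 0.19 above. Cd63, a tetraspanin of late endosomes, lay 0.29, 0.52, 0.080 and 0.19 above, and Neu1, a sialidase, 0.19, 0.61, 0.030 and 0.14. In the proton pump, Atp6v1c1 lay 0.28, 0.20, 0.16 and 0.15 above and Atp6ap2 0.19, 0.38, 0.073 and 0.20. These genes were above the mean of the 15 with each drug, and none was called against the 15.

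**Figure D4:**
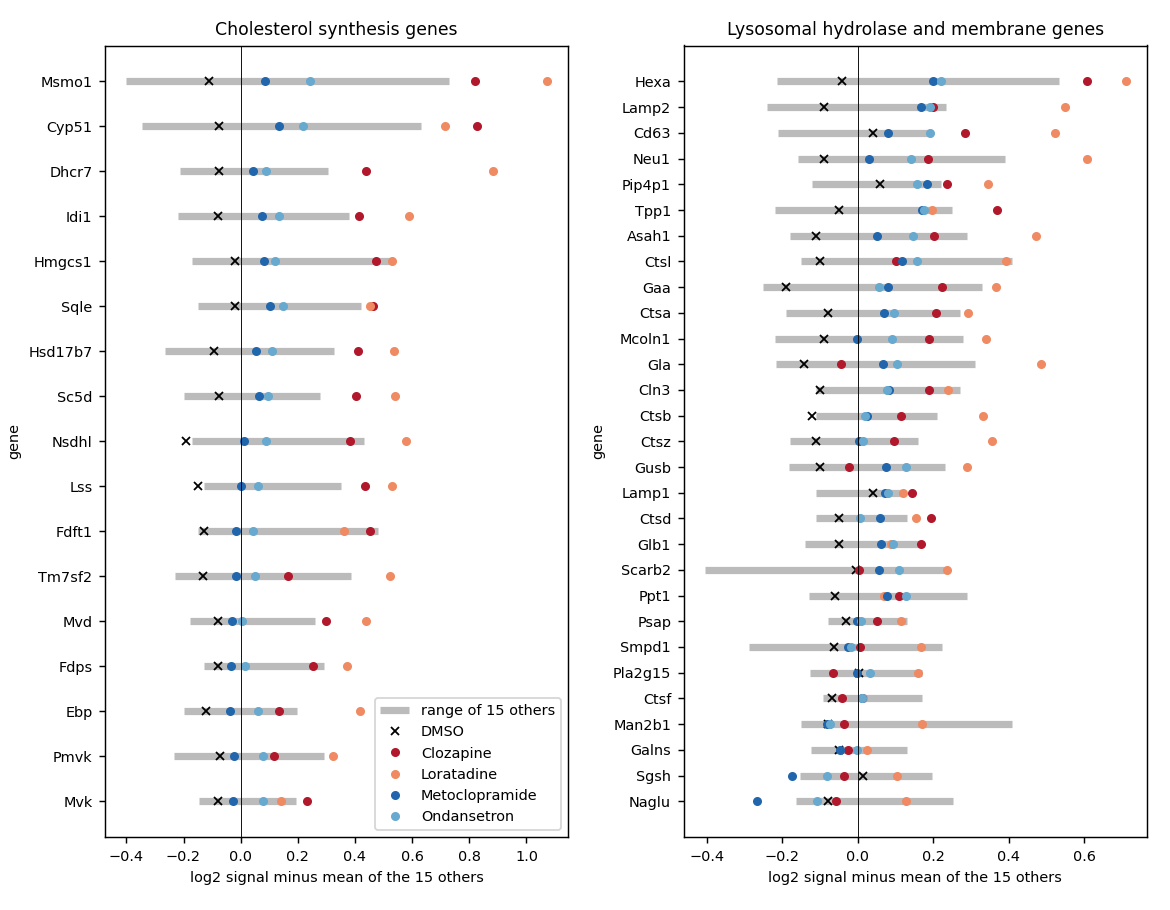
Log2 signal minus the mean of the 15 other compounds for 17 cholesterol synthesis genes (left) and 29 lysosomal hydrolase and membrane genes (right), with 1 point per drug, a cross for DMSO and a grey bar for the range of the 15. On the left Clozapine and Loratadine lie near or beyond the end of the bars while Metoclopramide and Ondansetron lie within them, and on the right the 4 drugs lie closer together.

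The genes of autophagy and TFEB signalling had the most even medians of the 4 drugs, 0.052, 0.061, 0.062 and 0.063 for Clozapine, Loratadine, Metoclopramide and Ondansetron. The median difference of the list was 0.056, and 0.035 after quantile normalisation. The medians of the 15 others ran from -0.092 (Dexamethazone) to 0.057 (VPA), and VPA lay above Clozapine. Of 35 genes, 15 were above the mean of the 15 with all 4 drugs and 0 below with all 4 (13.2% and 21.3% of all genes). Compared with DMSO, 8 were called higher, and 5 without Loratadine (4.25% and 1.053% of all genes). Flcn and Fnip1, whose proteins form the complex that acts on Rag GTPases, differed by 0.22 ± 0.043 (limma, adjusted p = 0.0671) and 0.29 ± 0.069 (limma, adjusted p = 0.219). Fnip1 lay 0.26, 0.41, 0.24 and 0.27 above the mean of the 15 and Flcn 0.22, 0.24, 0.24 and 0.16. Tfeb itself differed by 0.18 and was 0.060 ± 0.049 above DMSO (limma, 60 arrays, adjusted p = 0.492).

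The ATF4 and CHOP genes, which respond to amino acid lack and endoplasmic reticulum stress, had their highest values with Loratadine. The list medians were 0.013, 0.29, -0.018 and 0.036 for Clozapine, Loratadine, Metoclopramide and Ondansetron. All 4 drugs were above the mean of the 15 in 6 of 19 genes and below it in 2 (13.2% and 21.3% of all genes). With the mean of the 4, 12 of 19 were called higher than DMSO, and 4 without Loratadine (4.25% and 1.053% of all genes). The mean of the 15 others was also called higher than DMSO for Chac1 (by 0.43) and Stc2 (0.20), but not for Ddit3 (0.13) or Atf4 (0.12). Ddit3, which encodes CHOP, lay 1.45 above the mean of the 15 with Loratadine and at 0.041, -0.075 and -0.071 with Clozapine, Metoclopramide and Ondansetron. Chac1, a glutathione-degrading enzyme, lay 1.13 above with Loratadine, 0.087 with Clozapine, -0.25 with Metoclopramide and 0.22 with Ondansetron. Amino acid synthesis and transport genes had medians of -0.0025, 0.30, -0.038 and 0.040, with Slc6a9, a glycine transporter, 0.92 above with Loratadine. In that list all 4 drugs were above the mean of the 15 in 3 of 19 genes and below it in 0. For Slc6a9 the mean of the 15 others was also called higher than DMSO, by 0.25.

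In the pluripotency list all 4 drugs were above the mean of the 15 in 11 of 26 genes and below it in 1 (13.2% and 21.3% of all genes). For 2 genes (Esrrb and Klf2) the 4 means lay above all 15 others (0.11% of genes), and for 0 below them (0.0251%). Against DMSO 2 were called higher (4.25% of all genes) and 1 lower (1.2%), and 2 and 0 without Loratadine. Tbx3 and Tcl1, further members of the network, differed by 0.18 and 0.17. Pou5f1 and Sox2 differed by 0.040 and 0.0038 from the 15 others, and were lower with the 4 drugs (12.83 and 12.36) than with DMSO (12.87 and 12.41). The list medians were 0.040, 0.044, 0.099 and 0.077, and the 15 others ran from -0.27 (VPA) to 0.13 (Sulfasalazine). Paracetamol lay at -0.18 and DMSO at 0.035. Set against DMSO, the mean of the 4 had a list median of 0.020.

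The receptors that the drugs are known to bind, of dopamine, serotonin, histamine, acetylcholine and adrenaline, were measured for 25 genes. None was called against the 15 others, and their differences ran from -0.12 to 0.059. All 4 drugs were below the mean of the 15 in 11 of 25 (21.3% of all genes), and 22 of the 25 were under the median brightness. The median was -0.075, and it was -0.0023 with the interquartile range as a covariate. Lists of endoplasmic reticulum chaperones, heat shock, p53 targets and hypoxia genes had medians between -0.0026 and 0.0049, and markers of fibroblasts, mesoderm and endoderm, neural and trophectoderm cells between -0.071 and 0.015. The drugs differed in direction in some of these. The chaperone medians were 0.011, 0.12, -0.067 and -0.064 for Clozapine, Loratadine, Metoclopramide and Ondansetron, and the neural medians 0.038, -0.11, 0.082 and 0.059. After quantile normalisation the chaperone, heat shock, hypoxia and neural medians changed sign, to between -0.021 and -0.014.

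The remaining lists had small medians. Their counts against DMSO stand beside 4.25% of all genes called higher and 1.2% lower (1.053% higher without Loratadine). Immediate early and ERK feedback genes had 0.026 (0.0081 after quantile normalisation and -0.0012 with the interquartile range as a covariate), with 6 of 24 called higher than DMSO (3 without Loratadine). Zfp36, which binds and destabilises messenger RNA, lay 0.21, 0.46, 0.11 and 0.17 above the mean of the 15 with Clozapine, Loratadine, Metoclopramide and Ondansetron. Dusp4 lay 0.30, 0.18, 0.28 and 0.16 above in the same order. The aminoacyl-tRNA synthetases, which charge transfer RNA, had a median of 0.050 with 4 of 19 called higher than DMSO (0 without Loratadine). All 4 drugs were above the mean of the 15 in 8 of these 19 and below it in 0 (13.2% and 21.3% of all genes). After quantile normalisation they were all above in 2 of 19, beside 1913 of all 19938 genes. The targets of NRF2, the oxidative stress factor, had 0.035 (0.0058 after quantile normalisation) with 5 of 19 called higher (3 without Loratadine). Targets of BMP and Nodal had -0.023 with 0 of 15 called higher and 1 lower (0 and 0 without Loratadine), and targets of the aryl hydrocarbon receptor -0.037 with 0 of 13 called.

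**Figure D5:**
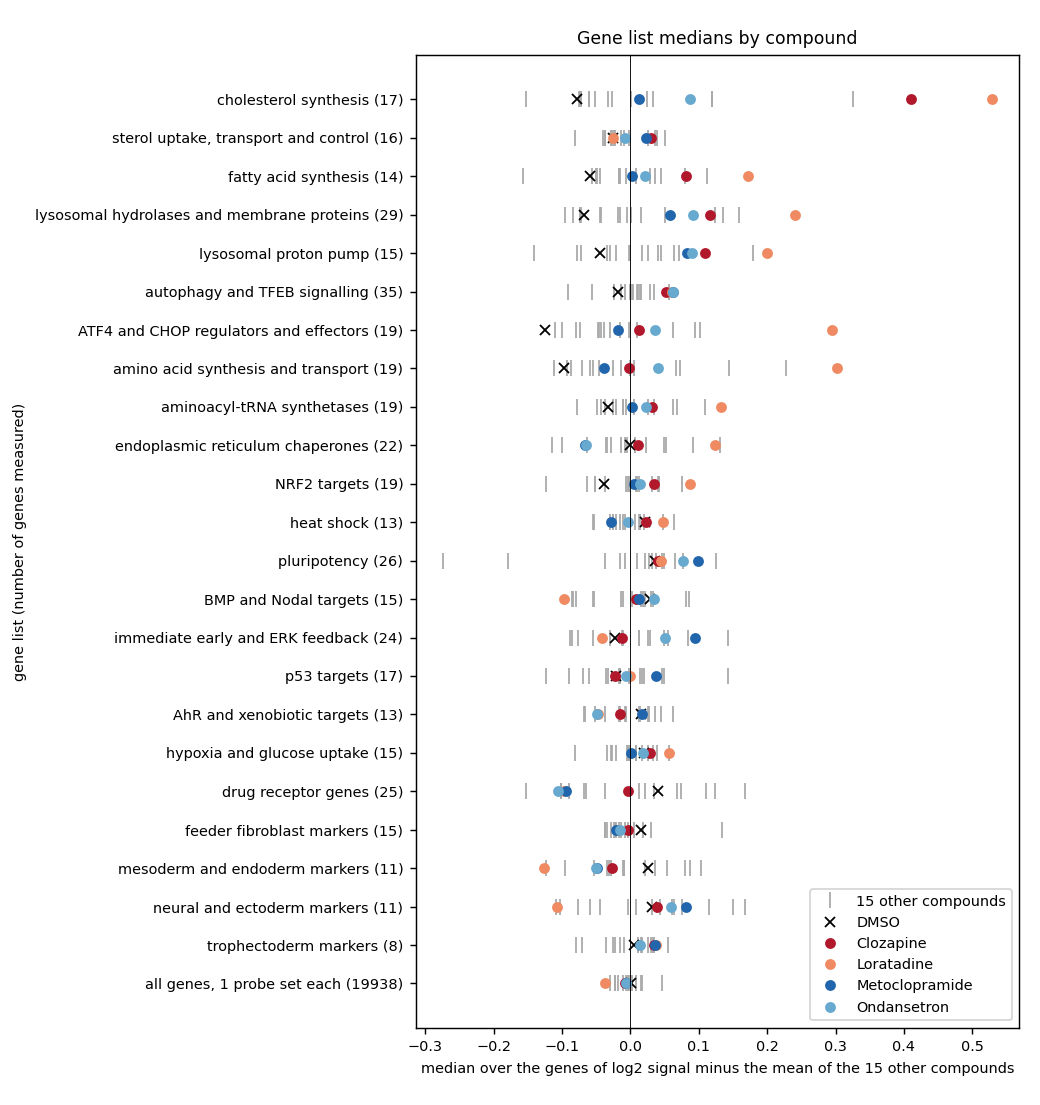
Median over the genes of each list of the log2 difference from the mean of the 15 other compounds, with 1 coloured point per drug, grey ticks for the 15 others and a cross for DMSO. Cholesterol synthesis spreads the 4 drugs from 0.013 to 0.53, and autophagy and TFEB signalling holds them between 0.052 and 0.063.

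No difference between the 4 drugs and the others was detected in the size of the response. The root mean square difference from DMSO over 21789 probe sets was 0.103 for Clozapine, 0.184 for Loratadine, 0.110 for Metoclopramide and 0.118 for Ondansetron, ranks 13, 2, 10 and 9 of 19. The mean was 0.129 ± 0.037 (SD, n = 4) against 0.126 ± 0.036 (SD, n = 15), with a two-sided exact permutation p of 0.902 over 3876 splits. The root mean square distance between drug means ran from 0.0758 to 0.154 within the 4 (6 pairs, median 0.121) and from 0.0780 to 0.245 between the 4 and the 15 (60 pairs, median 0.144). Metoclopramide and Ondansetron were each other's nearest, at 0.0758. Clozapine was nearest to Dimethadione at 0.0952 and Loratadine to Glybenclamide at 0.126.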

How the data were processed

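The files hold log2 signals, 1 per probe set and array, made with RMA per the submitters' processing notes and deposited by the authors. Its version and options were not given in the sources used here. Altogether the table has 35556 probe sets. GEO's platform annotation lists 23410, 21789 with a single gene symbol (19938 symbols) and 1621 with several, and the rest are unnamed here. Only the 21789 were tested. No array pair was identical. With arrays there is no read depth, and precision is limited by having 3 arrays in each group.

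The members and the gene lists were chosen with earlier results of these data known. Compound means were compared, 4 against 15, with lmFit and eBayes of limma 3.58.1 (R 4.3.3, 17 residual and 6.12 prior degrees of freedom) without further normalisation. The mean of the 4 was set against DMSO in a fit of all 60 arrays with a mean per group (40 residual and 7.31 prior degrees of freedom). The Benjamini-Hochberg adjustment ran over 21789 probe sets, with a threshold of 0.05. Named genes were, by rule, the first 14 higher and 12 lower probe sets whose 4 means did not overlap the 15, ordered by the smallest of the 4 differences with called ones first. The rule adds the members of each list with the largest absolute difference, 4 for the sterol uptake list, which had a member called against the 15, and 2 for every other list. The members of next rank (Dhcr7, Idi1, Cd63, Neu1, Flcn, Tfeb, Tbx3 and Tcl1) fall outside it and were named after their values were seen. Pou5f1, Nanog, Sox2 and Col1a1 serve as markers. For lists the brightest probe set stood for a gene. The script was tested on simulated data. Alternatives covered normalisation, filters, the choice of comparison compounds, an array-level fit, the interquartile range and leaving out compounds or arrays.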

Additional observations from a re-analysis of the deposited data

Results flagged for a closer look

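Among 113 items, 13 had 1 of the 4 drug means standing apart from the other 3 beyond Dixon's critical value. That value is passed by about 1 in 20 of unselected items. Many of the 113 were picked for large differences, which 1 drug can produce, and items overlap. The count therefore has no chance rate to be read against. Loratadine stood apart upward for Klf6 (10.87), Sec61a2 (9.982), Lamp2 (10.31), Ddit3 (9.756) and Hspb8 (10.03), and downward for Per2 (7.525), Cbr3 (8.425) and Fgf5 (8.855). Clozapine stood apart upward for Dusp3 (9.456) and Ondansetron downward for Tiparp (10.17). Of the list medians, Clozapine stood apart for the drug receptor genes (-0.003626) and Ondansetron for the trophectoderm markers (0.01423). Clozapine also stood apart for autophagy and TFEB signalling, by little in size (0.05203, against 0.06095 to 0.06274 for the other 3).

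With every probe set of the table tested, 3 with no gene name were called higher with the 4 drugs than with the 15 others and lay above DMSO. Probe set 10338085 differed by 0.2833, probe set 10340402 by 0.5773 and probe set 10342148 by 0.6852 (limma, 19 compound means), and in the last 2 the 4 means did not overlap the others.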

How the results depend on the processing

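The 7 calls became 4 after quantile normalisation, 97 with arrays as units and the compound as a random block, and 4614 (2230 higher, 2384 lower) with fixed compound means. They became 15 with DMSO among the others, and 0 with the interquartile range as a covariate, against the 5 other IC10 compounds and against the 5 other non-teratogens. Leaving out 1 compound or array gave 0 to 28 calls, the lowest without Clozapine and the highest without Chlorthalidone, with 12 without Ondansetron replicate 1. The 29 non-overlapping probe sets became 50 over all probe sets, 478 against IC10 compounds, 436 against non-teratogens, 58 without Retinoic acid and VPA, and 19 to 113 with 1 compound or array left out (113, 61, 62 and 63 without Clozapine, Loratadine, Metoclopramide and Ondansetron, 52 without Chlorthalidone or Sulfasalazine, 45 without Dimethadione, 44 without VPA, 53 without Clozapine replicate 2 and 19 without Ondansetron replicate 2). Against DMSO, 1148 calls became 1754 with the 15 arrays alone, 691 with the interquartile range as a covariate (382 higher, chosen after seeing the data) and 233 to 1722 with 1 compound or array left out, among them 586 without DMSO replicate 1 and 315 without replicate 2. After quantile normalisation 66.3% of these calls were higher, in place of 77.2%. The difference in response size turned to -0.0107 without DMSO replicate 2 (exact permutation p = 0.631) and to -0.0156 without Loratadine (exact permutation p = 0.487), and the highest value was 0.0140, without DMSO replicate 3.

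Of single genes, none called, the sign turned for Fas (0.0202) and Col3a1 (0.0065) with the interquartile range as a covariate, and for Fas (0.0021) against IC10 compounds. Against non-teratogens it turned for Chac1 (-0.0445), Derl3 (-0.0373), Herpud1 (-0.0023) and Hmox1 (-0.0311). It turned for Fgf5 (-0.0084) without Retinoic acid and VPA, for Ddit3 (-0.0351), Derl3 (-0.0710) and Herpud1 (-0.0312) without Loratadine, and for Lefty2 (-0.0126) without Metoclopramide. With 1 compound left out these reached at most 0.472, 0.246, 0.223 and 0.253. The causes were not tested. No paired analysis was possible because the labels give no replicate numbers that are shared across groups: the numbers used here only name arrays, in the order of deposition.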
